A study of Mus musculus with 20 samples.

Results

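Mouse embryos at the 8-cell stage, before compaction, were set against oocytes to see which maternal transcripts were gone and which embryonic ones were in place. The comparison took the 4 arrays whose titles name the 8-cell stage and the 4 whose titles name the oocyte, 8 of the 20 arrays of a series on mouse preimplantation development. The other 12 arrays held 1-cell embryos, 2-cell embryos and blastocysts, 4 of each, and entered only the shared estimate of the spread and the stage profiles. Each array was an Affymetrix MOE430B chip, hybridised with target made from total RNA in 2 rounds of in vitro transcription. The strain, the number of embryos or oocytes in a sample, the way they were obtained and the meiotic stage of the oocytes are not given in the labels. No label says that the 4 samples of a stage came from separate collections, so the spread that the p-values rest on may be technical, and precision is limited by how few arrays there are.

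In the mouse, the growing oocyte fills itself with stored messenger RNA and then stops transcription before ovulation. After fertilisation the embryo lives on this store while much of it is deadenylated and degraded, and a minor wave of transcription and then a major one, at the 2-cell stage, start the embryonic genome. By the 8-cell stage the blastomeres depend on their own transcripts and are about to flatten against one another and polarise, the first step toward trophectoderm and inner cell mass.

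Intensities are the authors' values on a linear scale, scaled by them so that the mean of each array, with 2% of values trimmed at each end, came to about 150. A gene's value is therefore relative to the rest of its own array: a change in the amount of RNA per embryo and a change in one transcript's share of it cannot be told apart. All differences are 8-cell minus oocyte, in units of log2(intensity + 20), with the standard error of the limma fit and n = 4 arrays in each stage, and they understate the change of dim probe sets. A probe set was called at an adjusted p under 0.05 (Benjamini-Hochberg over all 22511 probe sets that are not controls). Array medians lay between 90.1 and 93.2 on 8-cell arrays and between 67.8 and 80.1 on oocyte arrays, which moved the median of log2(intensity + 20) by 0.25 between the stages. Correlations over probe sets had a median of 0.869 among 8-cell arrays, 0.917 among oocyte arrays and 0.643 between the 2 stages. No array of either stage stood apart by these measures.

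The labels were first checked against markers of the 2 stages. Zar1, which encodes an RNA-binding protein of the oocyte, read 524, 464, 543 and 328 on the 8-cell arrays and 12170.2, 13659, 12871 and 14075 on the oocyte arrays. Bmp15, a growth factor secreted by the oocyte, read 11.8, 29.3, 14.5 and 125 on the 8-cell arrays and 3208, 2627, 2822 and 2515 on the oocyte arrays. All 4 oocyte arrays lay far above all 4 8-cell arrays for both genes, and the same held for Oosp3 and Ooep, described below. Zp1, Zp2, Zp3, Gdf9, Nlrp5, Mos, Oosp1 and Npm2, also set as oocyte markers, were not measured. Of the markers set for the 8-cell stage, only Rragd, Epas1 and Klf17 were measured. Cdh1, Krt8, Krt18, Tead4, Cdx2, Pou5f1, Nanog, Pard6b and Tfap2c were not, so the check rests on few genes. Like the other choices here, the markers were set with earlier results of these data known, so they are no independent check. Rragd and Epas1 were higher on every 8-cell array than on any oocyte array, though the other probe set of Rragd was not called. Both were also high in blastocysts, with means of 6389 and 2116, so they do not single out the 8-cell stage. Epas1, a hypoxia-inducible transcription factor, read 1733, 2843, 1964 and 2422 on the 8-cell arrays and 147, 71.3, 56 and 149 on the oocyte arrays (4.23 ± 0.28, adjusted p = 2.2e-11). A pair of the markers went the other way. Khdc3, a subunit of the subcortical maternal complex with Ooep, averaged 3707 ± 499.9 on 8-cell arrays and 2305 ± 358 on oocyte arrays (SD, n = 4 each; 0.68 ± 0.24, adjusted p = 0.033), and this call was lost when each array was centred on its median (adjusted p = 0.20) and when any of 6 of the 8 arrays was left out. Klf17, a cleavage-stage transcription factor, averaged 2182 ± 139 on 8-cell arrays and 4929.8 ± 704 on oocyte arrays (-1.16 ± 0.20, adjusted p = 6.6e-05), and was not called after quantile normalization (-0.54, adjusted p = 0.063).

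Over the whole array 28.8% of probe sets were called, 3929 higher at the 8-cell stage (17.5%) and 2556 lower (11.4%). The falls had the longer tail. Among called probe sets the median size was 1.34 for rises and 1.58 for falls, and differences of at least 5 log2 units were counted 24 times upward and 85 times downward. The balance of the calls depends on how the arrays are put on 1 scale: rises were 60.6% of the calls as deposited, 51.9% after quantile normalization (3143 higher, 2918 lower) and 43.2% after centring each array on its median (2605 higher, 3430 lower). The median difference over all probe sets was 0.19. With 1 probe set, the brightest, for each of 9607 named genes, 18.1% were called higher and 17.5% lower, with a median difference of 0.12 that turned negative under both other scalings. The gene lists below are read against these 3 values.

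**Figure D1:**
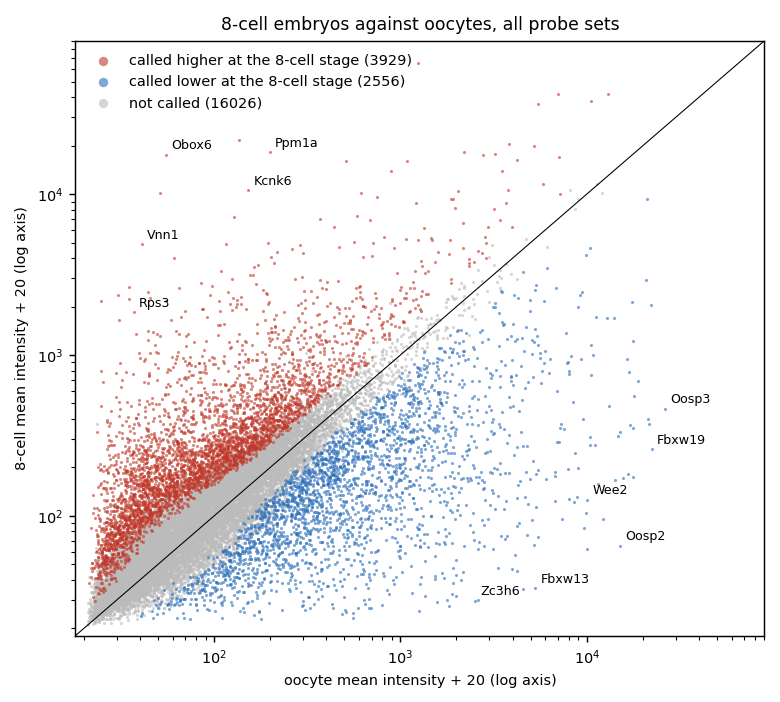
Mean intensity of each of 22511 probe sets over the 4 8-cell arrays (vertical, log axis) and over the 4 oocyte arrays (horizontal, log axis), each with 20 added; red points were called higher at the 8-cell stage, blue points lower, grey points neither. More falls than rises lie at least 5 log2 units from the line of equality (85 against 24), and Obox6 and Oosp2 mark the extremes named in the text.

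The steepest fall was that of Oosp2, which encodes a secreted protein of the oocyte. It read 82.8, 8.8, 75.8 and 13.2 on the 8-cell arrays and 11877, 17688, 14557 and 16412 on the oocyte arrays (-8.08 ± 0.35, adjusted p = 3e-14). Nlrp4b, an oocyte member of the NLR protein family, read 49.8, 24.2, 25 and 68.4 on the 8-cell arrays against 9551, 11179.7, 9052 and 10347 on the oocyte arrays (-7.40 ± 0.28, adjusted p = 2.8e-15). For both genes the lowest oocyte value was far above the highest 8-cell value. Pabpn1l, an oocyte poly(A)-binding protein, had 8-cell intensities of 13.9, 14.2, 15 and 17.9, against oocyte intensities of 4451, 3415, 5194 and 5011 (-6.99 ± 0.21, adjusted p = 8e-17). The F-box gene Fbxw13 had 8-cell intensities of 17, 15.8, 22.7 and 6.9, against oocyte intensities of 3959, 6338, 5709 and 5084 (-7.21 ± 0.26, adjusted p = 1.7e-15). Every 8-cell value of both genes lay below the table median of 82.5, and the 20th percentile of the table was 20. Wee2, the kinase that holds the oocyte in meiotic arrest, averaged 106 ± 41.2 at the 8-cell stage and 10036 ± 1262 in oocytes (-6.36 ± 0.23, adjusted p = 1.6e-15). Rgs2, a regulator of G-protein signalling that restrains early calcium release in the egg, averaged 153 ± 68.5 at the 8-cell stage and 15667 ± 1697 in oocytes (-6.59 ± 0.28, adjusted p = 1.7e-14). The rest of the 14 largest falls were Ccdc69, Fbxw18, Trim61, Nlrp4a, Fbxw19, Klhl8, Zc3h6 and Gpr1, with differences between -6.93 and -6.40. These falls, and the largest rises below, were picked only among called probe sets whose 2 groups did not overlap.

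At the other end stood Obox6, an oocyte-specific homeobox gene by name. It read 21768, 15915, 16534 and 16086 on the 8-cell arrays and 28.1, 31.8, 47.1 and 33.6 on the oocyte arrays (8.32 ± 0.17, adjusted p = 6.3e-20). All 4 oocyte arrays were below the table median and all 4 8-cell arrays far above its 75th percentile of 188.3. Vnn1, a pantetheinase that releases cysteamine, read 4306, 5169.9, 6059 and 3981 on the 8-cell arrays and 6.4, 13.9, 52.3 and 10.8 on the oocyte arrays (7.01 ± 0.35, adjusted p = 2.4e-13). Ppm1a, a protein phosphatase, read 19499.9, 15885, 15899.9 and 21688 on the 8-cell arrays and 169.6, 183, 180.0 and 183 on the oocyte arrays (6.51 ± 0.16, adjusted p = 1.9e-18). Gigyf2, a partner of the cap-binding protein 4EHP in translational repression, varied little between arrays of a stage: its 8-cell arrays gave 2109.5, 2086, 2088 and 2249 and its oocyte arrays 5.1, 5, 4.2 and 4.6 (6.44 ± 0.19, adjusted p = 3.1e-17). Rragd, a small GTPase that relays amino acid supply to mTORC1, averaged 4913 ± 1008 at the 8-cell stage and 95.5 ± 30.9 in oocytes (5.44 ± 0.23, adjusted p = 2.6e-14). Xpot, the exporter of transfer RNA, averaged 7200.2 ± 1669.9 at the 8-cell stage and 108 ± 62.4 in oocytes (5.92 ± 0.30, adjusted p = 2.4e-13). Bri3bp, Tmem64, the potassium channel gene Kcnk6, the ribosomal protein gene Rps3, Gk5, Lemd3, Plaat3 and Rbm34 made up the 14, with differences between 5.24 and 6.29.

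**Figure D2:**
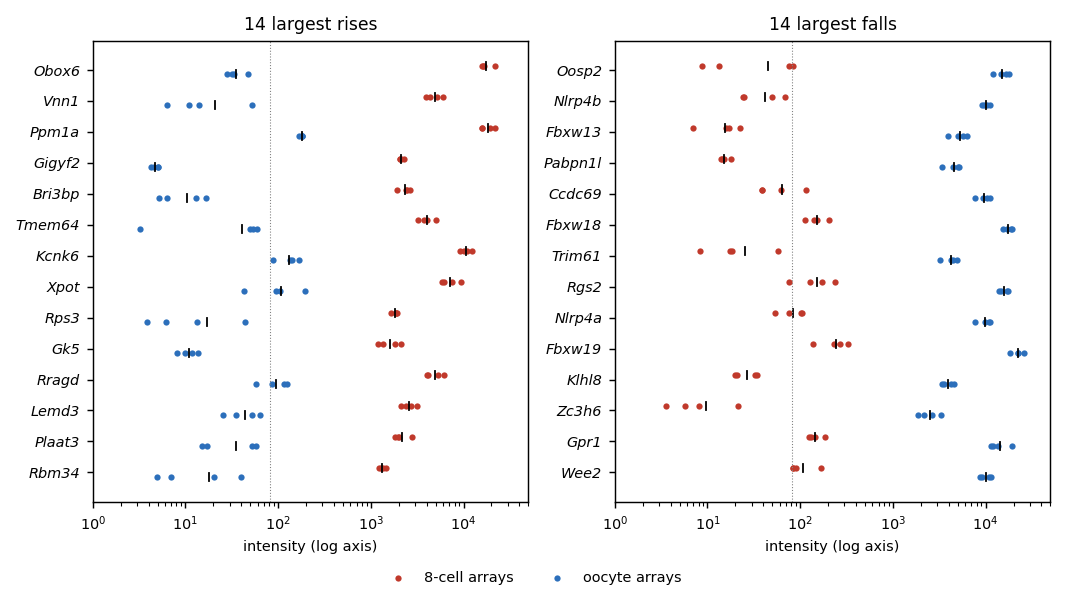
Intensity on each array (log axis) for the 14 largest rises (left) and the 14 largest falls (right); red points are the 4 8-cell arrays, blue points the 4 oocyte arrays, black ticks their means, and the dotted line is the table median of 82.5. Genes were picked only among called probe sets whose 2 groups did not overlap, so the separation is set by the rule. Several falls end left of the dotted line.

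Promoters of the 2 steepest falls, and of the 2 steepest rises that have a window in the table used, are shown because their base composition is contrasted below. The windows run from 250 bases before to 50 bases after the gene's start in RefSeq (GRCm38.p6). Oosp2 lies at chr19:11660510-11660809 on the minus strand, Nlrp4b at chr7:10687543-10687842 on the plus strand, Ppm1a at chr12:72760961-72761260 on the plus strand and Gigyf2 at chr1:87326748-87327047 on the plus strand. Capitals mark the E-box core CANNTG and the GC box core GGGCGG on either strand; the ETS core searched with them is in none of the 4 windows.
Oosp2: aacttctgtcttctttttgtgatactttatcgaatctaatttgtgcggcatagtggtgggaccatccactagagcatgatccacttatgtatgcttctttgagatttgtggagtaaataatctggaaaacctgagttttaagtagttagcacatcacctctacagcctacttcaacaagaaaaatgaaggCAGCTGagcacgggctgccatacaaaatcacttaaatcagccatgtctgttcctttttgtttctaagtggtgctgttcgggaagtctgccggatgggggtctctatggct
Nlrp4b: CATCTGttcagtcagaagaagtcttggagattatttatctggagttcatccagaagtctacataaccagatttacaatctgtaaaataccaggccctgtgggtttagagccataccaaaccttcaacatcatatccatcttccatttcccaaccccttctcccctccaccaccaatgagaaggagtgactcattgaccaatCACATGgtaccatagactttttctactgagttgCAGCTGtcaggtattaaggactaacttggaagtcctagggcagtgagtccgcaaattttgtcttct
Ppm1a: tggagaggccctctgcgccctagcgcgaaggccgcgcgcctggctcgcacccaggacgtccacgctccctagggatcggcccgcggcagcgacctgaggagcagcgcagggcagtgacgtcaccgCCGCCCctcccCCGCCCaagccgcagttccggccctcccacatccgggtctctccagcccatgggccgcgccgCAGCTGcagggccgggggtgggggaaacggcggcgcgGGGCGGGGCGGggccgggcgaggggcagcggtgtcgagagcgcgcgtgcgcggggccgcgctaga
Gigyf2: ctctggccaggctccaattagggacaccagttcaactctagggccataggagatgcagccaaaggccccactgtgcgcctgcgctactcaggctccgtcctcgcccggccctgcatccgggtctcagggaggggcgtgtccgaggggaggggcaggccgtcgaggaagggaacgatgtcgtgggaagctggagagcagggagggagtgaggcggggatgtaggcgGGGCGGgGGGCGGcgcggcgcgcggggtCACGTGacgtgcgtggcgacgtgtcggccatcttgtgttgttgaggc
The windows of Oosp2 and Nlrp4b hold 5 and 1 CpG dinucleotides and no GGGCGG. Those of Ppm1a and Gigyf2 hold 42 and 27 CpG dinucleotides, with 4 and 2 matches to GGGCGG. Over the classes defined below, a window was found for 118 of 153 genes switched on and 127 of 163 genes switched off, and the median CpG count was 22.5 in the first and 13 in the second, against 17 over 7533 genes of the array. GGGCGG was in 66.1% of the windows of genes switched on, 48.0% of those of genes switched off and 54.1% of all. CCGGAAG, a core bound by ETS factors, was in 22.9%, 6.30% and 13.6% of the same 3 sets. CANNTG ran the other way, with 61.9% of windows switched on, 78.7% switched off and 66.7% of all. CANNTG includes the CACGTG form, found in 9.32%, 14.2% and 8.72%. A match says only that these letters are in the window.

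Whether a transcript was gone was read from 2 thresholds, since the table has no detection calls. A probe set was counted as switched off if it was called lower, lay at or above the table's 75th percentile of 188.3 on all 4 oocyte arrays and was below the table median of 82.5 on all 4 8-cell arrays; as switched on if it met the mirror image; and as kept if all 8 arrays were at or above 188.3 and the 95% interval of the difference lay within 1 log2 unit of 0. By this rule 188 probe sets were switched off (0.835% of all tested), 235 switched on (1.04%) and 1211 kept (5.38%), standing for 163, 153 and 891 named genes. Oosp2 missed the first class by 1 8-cell array, at 82.8. Counted over 1 probe set a gene, the 3 classes held 1.34%, 1.09% and 8.46% of genes. Most falls of bright maternal transcripts left signal at or above the lower of these thresholds, the table median. Of 3896 probe sets high on all 4 oocyte arrays, 1844 were called lower, but 1126 of these stayed at or above the median on all 4 8-cell arrays and 188 were off. Another 509 were called higher, and 1543 were not called. Of 4019 probe sets high on all 4 8-cell arrays, 1758 were called higher and 235 were switched on, while 2290 were high on all arrays of both stages.

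Some of the most abundant maternal transcripts were in the partial group. Oosp3, a relative of Oosp2, read 402, 487, 461 and 422 on the 8-cell arrays and 22574, 30949, 27115 and 24615 on the oocyte arrays (-5.82 ± 0.25, adjusted p = 2.6e-14). Ooep, of the subcortical maternal complex, read 443, 339, 324 and 305 on the 8-cell arrays against 18780.3, 24621, 22310.4 and 20784 on the oocyte arrays (-5.87 ± 0.23, adjusted p = 3.4e-15). Both fell steeply and both remained above 188.3 on every 8-cell array. Padi6, a peptidylarginine deiminase needed for oocyte lattices, averaged 671 ± 99.6 at the 8-cell stage and 18815 ± 1532 in oocytes (-4.78 ± 0.28, adjusted p = 3e-12). Elobl averaged 2921 ± 487 at the 8-cell stage and 20839.7 ± 4097 in oocytes (-2.82 ± 0.21, adjusted p = 2.3e-10), and Fbxw24 averaged 381 ± 98.4 and 21416 ± 3303 in the same order (-5.76 ± 0.34, adjusted p = 3.6e-12). Bms1, a GTPase of small-subunit ribosome assembly, was the mildest of the 8 brightest falls, at 9317 ± 1549 in 8-cell embryos and 21074 ± 2506 in oocytes (-1.18 ± 0.22, adjusted p = 0.0002).

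The stages between place these changes in time. The median of the stage means of the probe sets switched off over the 5 stages in developmental order was 571, 527, 255, 27.8 and 35.6. For the probe sets switched on the values in the same order were 32.9, 33.7, 132, 409.9 and 260.1. Of the whole log2 difference between oocyte and 8-cell stage, which the rule fixed, the median probe set switched off had covered 3.55% by the 1-cell stage and 34.7% by the 2-cell stage, and the median probe set switched on 1.80% and 51.4%. At least 50% of the difference was reached by the 2-cell stage in 57 of 188 probe sets switched off and in 123 of 235 switched on. In blastocysts, which the rule did not use, 130 of 188 probe sets switched off stayed below the median on all 4 blastocyst arrays, and 102 of 235 switched on were still at or above 188.3 on all 4.

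**Figure D3:**
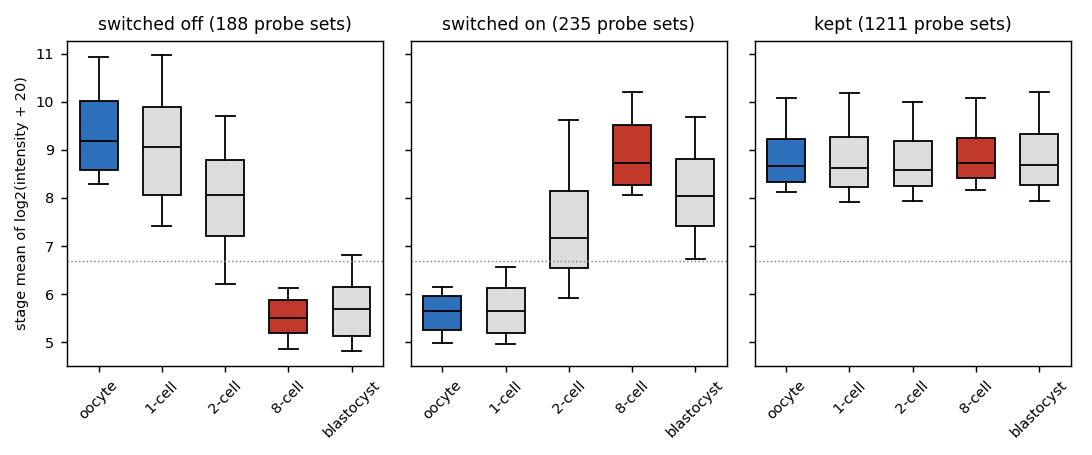
Stage means of log2(intensity + 20) for the probe sets switched off, switched on and kept, over the oocyte, 1-cell, 2-cell, 8-cell and blastocyst arrays; boxes are quartiles with the median, whiskers the 10th and 90th percentiles, and the dotted line the table median. Oocyte (blue) and 8-cell (red) boxes are set by the rule, and the 3 grey boxes show that the falls and the rises were under way at the 2-cell stage.

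Of the list of oocyte and maternal-effect genes, 35 were measured, and 31 of them fell, with a median difference of -5.73. The 10 measured F-box genes of the oocyte Fbxw family all fell, by 7.21 to 1.15 log2 units, although the groups of Fbxw10 overlapped. Of the Nlrp family 8 of 10 fell. Nlrp14, needed for cleavage, averaged 311 ± 74.2 at the 8-cell stage and 14993 ± 2165 in oocytes (-5.52 ± 0.32, adjusted p = 2.5e-12). Nlrp4f, another of the family, averaged 138 ± 30.5 at the 8-cell stage and 11536 ± 2471 in oocytes (-6.19 ± 0.34, adjusted p = 9.6e-13). Nlrp12, best known from leukocytes, rose instead, with 120.4, 231, 248 and 234 on the 8-cell arrays and 90.7, 112, 86.1 and 68.1 on the oocyte arrays (1.03 ± 0.29, adjusted p = 0.0079), and Nlrp10, at 8.57 ± 4.06 at the 8-cell stage and 11.7 ± 1.77 in oocytes, was not called. The 3 maternal-list genes that rose were Obox6, Khdc3, whose stage means are given above, and Trim28. Trim28, the co-repressor of KRAB zinc finger proteins, averaged 8735 ± 935 at the 8-cell stage and 3652 ± 554 in oocytes (1.26 ± 0.17, adjusted p = 1.8e-06). Sohlh1, a transcription factor of early oocytes, was not called (-0.37 ± 0.31, adjusted p = 0.43). Obox5, of the same homeobox family as Obox6, fell (-5.56 ± 0.29, adjusted p = 6.3e-13).

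Genes of egg activation, calcium signalling and meiotic arrest were called in both directions: of 25 measured, 9 fell and 5 rose, with a median of -0.31. The rises were near the 18.1% over all named genes, and the falls were above the 17.5%. Bub1b, the spindle checkpoint kinase BubR1, averaged 765 ± 259 at the 8-cell stage and 16916 ± 2179 in oocytes (-4.48 ± 0.25, adjusted p = 1.5e-12). Astl, the ovastacin protease that hardens the zona pellucida, averaged 314 ± 96.9 at the 8-cell stage and 4399 ± 393 in oocytes (-3.77 ± 0.17, adjusted p = 6.2e-14). Chek1 and Prkaca fell as well (-3.27 ± 0.27, adjusted p = 1.5e-09, and -2.69 ± 0.27, adjusted p = 3.6e-08). The 5 rises included both measured Cdc25 phosphatases, which activate cyclin-dependent kinases. Cdc25c averaged 823 ± 174 at the 8-cell stage and 167 ± 32.6 in oocytes (2.16 ± 0.26, adjusted p = 4.3e-07), and Cdc25a averaged 91.7 ± 16.1 and 13.3 ± 4.09 in the same order (1.74 ± 0.40, adjusted p = 0.0017). Trpm7, a divalent cation channel of the egg, also rose (1.44 ± 0.33, adjusted p = 0.0017). The probe sets of Cdc25c and Trpm7 are of the x_at and s_at types, which can match several genes. Without the x_at and s_at probe sets the list's calls were 3 higher and 5 lower.

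Genes that shorten, protect or decay messenger RNA moved in both directions: 19 of 54 measured genes were higher and 16 lower, with a median of 0.32. Within this list close relatives were called in opposite directions, a pattern picked out after the values were seen. Tent4a, a non-canonical poly(A) polymerase, read 144, 217, 199 and 217 on the 8-cell arrays and 3573, 3017, 3922 and 3072 on the oocyte arrays (-4.00 ± 0.17, adjusted p = 1.7e-14). Its paralog Tent4b read 9549, 11376, 8819 and 12156 on the 8-cell arrays and 2222, 2074, 2035 and 1754 on the oocyte arrays (2.36 ± 0.20, adjusted p = 2.1e-09). The 2 groups were separate for both genes, in opposite orders. Among the Argonautes, which carry small RNAs, Ago2 averaged 2383 ± 266 at the 8-cell stage and 171 ± 37.5 in oocytes (3.67 ± 0.23, adjusted p = 9.9e-12) and Ago4 rose as well (1.80 ± 0.20, adjusted p = 1.8e-07). Ago3 averaged 341 ± 84.6 at the 8-cell stage and 1725 ± 162 in oocytes (-2.30 ± 0.22, adjusted p = 9.9e-09), and Ago1 was not called (0.70 ± 0.27, adjusted p = 0.051). The exonuclease gene Dis3l fell (-4.03 ± 0.37, adjusted p = 9e-09) while Dis3l2, which degrades uridylated RNA, rose by less (0.62 ± 0.21, adjusted p = 0.032). The poly(A) polymerases Tent5b and Tent5c fell (-4.03 ± 0.30, adjusted p = 2e-10, and -4.03 ± 0.18, adjusted p = 3.7e-14), and so did the egg poly(A)-binding protein Pabpc1l (-2.36 ± 0.30, adjusted p = 1.2e-06). Btg1, an activator of the CCR4-NOT deadenylase, was switched on, with 197, 328, 199 and 202 on the 8-cell arrays and 9.5, 25.1, 11.1 and 8.6 on the oocyte arrays (2.90 ± 0.29, adjusted p = 2.4e-08). With arrays centred on their medians the list had 12 rises in place of 19.

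**Figure D4:**
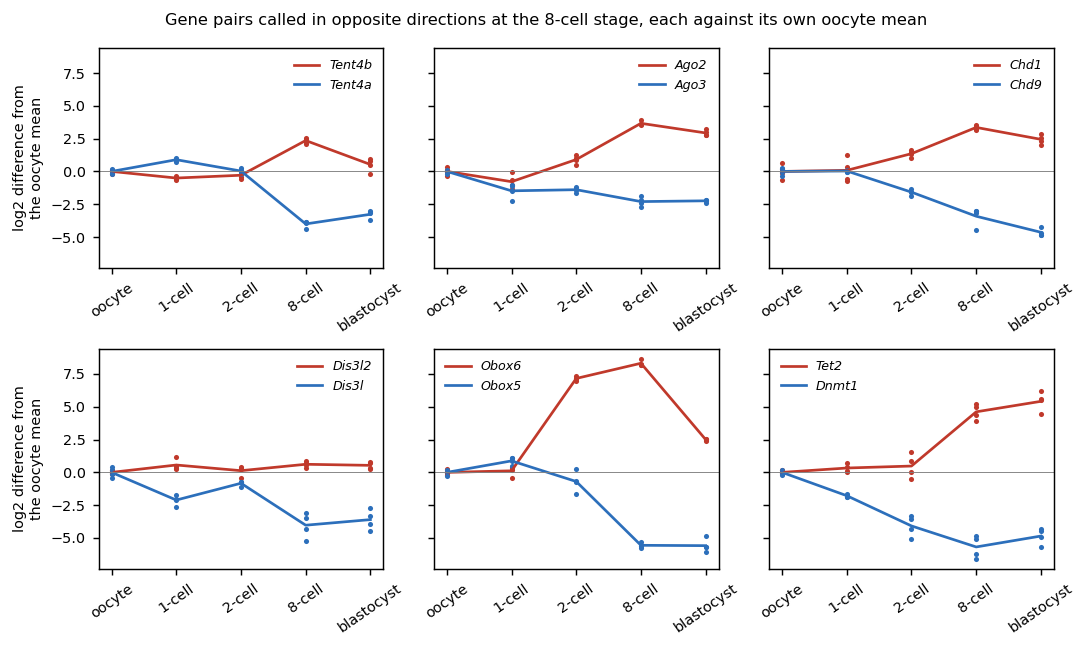
Difference of log2(intensity + 20) from the gene's own oocyte mean on all 20 arrays (points) with stage means (lines), for pairs called in opposite directions at the 8-cell stage: Tent4b and Tent4a, Ago2 and Ago3, Chd1 and Chd9, Dis3l2 and Dis3l, Obox6 and Obox5, and the DNA methylation enzymes Tet2 and Dnmt1. Red genes were higher at the 8-cell stage than in oocytes and blue genes lower, and the Obox6 line peaks at the 8-cell stage and is lower in blastocysts.

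The genes listed for zygotic genome activation at cleavage included 7 rises and 3 falls among 16 measured, with a median of 0.66. Ubtfl1, an embryonic relative of the RNA polymerase I factor UBTF, read 1175, 1409, 1702 and 1218 on the 8-cell arrays and 42, 30.9, 16.5 and 18.9 on the oocyte arrays (4.91 ± 0.33, adjusted p = 4.4e-11). Its stage means for oocyte, 1-cell, 2-cell, 8-cell and blastocyst were 27.1, 30.9, 4557, 1376 and 213, with the highest mean at the 2-cell stage. Obox6 had its highest mean at the 8-cell stage, with stage means in the same order of 35.1, 40.9, 7828, 17576 and 290.5. Eif1ad and Ddit4l, an inhibitor of mTOR signalling, were higher too (2.47 ± 0.19, adjusted p = 5.6e-10, and 1.96 ± 0.20, adjusted p = 4.7e-08). Patl2, an RNA-binding protein of growing oocytes, and Pramel13 fell (-3.05 ± 0.16, adjusted p = 4.3e-13, and -3.08 ± 0.19, adjusted p = 1.1e-11). The third fall was Klf17, given above, and Duxf3, of the DUX family that acts at the 2-cell stage, was not called (-0.01 ± 0.35, adjusted p = 0.99).

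Of 63 measured genes of ribosome biogenesis and RNA polymerase I, 36 rose and 6 fell, with a median of 0.81. Tsr1, which acts late in 40S subunit maturation, read 8726, 10009, 9652 and 12158 on the 8-cell arrays and 596, 596, 660.1 and 531 on the oocyte arrays (4.04 ± 0.18, adjusted p = 4.4e-14). Wdr3, a subunit of the small-subunit processome, averaged 7259.6 ± 706 at the 8-cell stage and 562 ± 83.1 in oocytes (3.65 ± 0.19, adjusted p = 6.4e-13). Utp23, of the same assembly, was switched on, at 1285 ± 224 in 8-cell embryos and 31.3 ± 21.8 in oocytes (4.76 ± 0.27, adjusted p = 2.6e-12). Twistnb, a subunit of RNA polymerase I, and Taf1d, a subunit of its selectivity factor, rose (3.88 ± 0.22, adjusted p = 1.9e-12, and 3.83 ± 0.29, adjusted p = 2.2e-10). The 6 falls included Noc4l and Polr1d, a subunit shared by RNA polymerases I and III (-1.83 ± 0.27, adjusted p = 9.4e-06, and -1.40 ± 0.27, adjusted p = 0.00023); without x_at and s_at probe sets 2 falls were left. Riok1 was called lower on the probe set used here (-2.39 ± 0.25, adjusted p = 6.7e-08) and higher on another.

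Few cytosolic ribosomal proteins are on this array. Rpl22 averaged 36517 ± 6837 at the 8-cell stage and 5431 ± 979 in oocytes (2.74 ± 0.21, adjusted p = 4.5e-10), and Rps3 averaged 1822 ± 111 and 16.9 ± 18.7 in the same order (5.76 ± 0.25, adjusted p = 3e-14). The other probe set of Rps3 was not called, so its rise rests on 1 probe set. The list caught 5 genes, 4 of them higher, but Rpl7l1 (3.21 ± 0.36, adjusted p = 2e-07) and Rps19bp1 (0.54 ± 0.16, adjusted p = 0.011; 0.29, adjusted p = 0.24, after median centring) are not subunits of the ribosome and the fifth, Rps16, was dim, at 8.55 ± 3.45 at the 8-cell stage and 3.45 ± 1.07 in oocytes. Of 28 genes of the mitochondrial ribosome 10 rose and 2 fell, with a median of 0.48. Mrps10 averaged 857 ± 103 at the 8-cell stage and 78.7 ± 22.3 in oocytes (3.17 ± 0.31, adjusted p = 2.2e-08), and Mrpl43 averaged 1592 ± 301 and 369 ± 22.9 in the same order (2.03 ± 0.19, adjusted p = 1.1e-08). Mrps27 fell (-1.39 ± 0.35, adjusted p = 0.0033). Mrpl19 was called lower with overlapping groups (-0.71 ± 0.26, adjusted p = 0.042), a call lost without any of 5 of the 8 arrays, and without x_at and s_at probe sets the rises of this list were 6.

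Splicing genes rose in 26 of 52 cases and fell in 4, with a median of 0.76. Snrpb, the core protein of the spliceosomal snRNPs, read 7228, 6937, 7289.5 and 6421 on the 8-cell arrays and 501, 129, 372 and 404 on the oocyte arrays (4.37 ± 0.28, adjusted p = 1.6e-11). Syncrip, an RNA-binding protein, read 2084, 2185, 2207 and 2066 on the 8-cell arrays and 94.3, 97.2, 86.9 and 66 on the oocyte arrays (4.35 ± 0.26, adjusted p = 5.9e-12). All 8-cell arrays of both genes stood above all oocyte arrays. Ppil1, a prolyl isomerase of the spliceosome, rose and its relative Ppil3 fell (3.22 ± 0.31, adjusted p = 1.4e-08, and -2.98 ± 0.20, adjusted p = 4.9e-11). Sf3b1, a core of the U2 particle, was higher (1.46 ± 0.27, adjusted p = 0.00019). Prpf19, a ubiquitin ligase of the spliceosome, averaged 10619.8 ± 1872 at the 8-cell stage and 3761 ± 705 in oocytes (adjusted p = 3.3e-06). The other falls were weak: Ddx46 had overlapping groups (-1.52 ± 0.41, adjusted p = 0.0058), and Lsm6 and Sf3b5 (-0.56 ± 0.21, adjusted p = 0.048, and -0.55 ± 0.20, adjusted p = 0.044) lost their calls in most of the sets with 1 array left out, which left 2 falls in several of them. Of 15 proteasome genes 6 rose and 9 were not called, with a median of 0.55. Psmb5, a catalytic subunit, averaged 6149.8 ± 820.0 at the 8-cell stage and 1317 ± 119.9 in oocytes (2.20 ± 0.17, adjusted p = 6.3e-10). Psma3 met the rule of switched on (2.65 ± 0.31, adjusted p = 3.7e-07) on its only named probe set, which averaged 40.2 ± 27.4 in oocytes.

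Nuclear pore and transport genes gave 11 rises and 6 falls among 31 measured, with a median of 0.38. Kpna7, the importin alpha of the oocyte and early embryo, read 62.4, 90.1, 44 and 19.3 on the 8-cell arrays and 6039.8, 5571, 4891 and 5368 on the oocyte arrays (-6.31 ± 0.33, adjusted p = 4.5e-13). The importin Ipo7, a carrier of ribosomal proteins among other cargo, averaged 413 ± 99.9 at the 8-cell stage and 48.8 ± 47.8 in oocytes (2.85 ± 0.40, adjusted p = 4.2e-06). Nucleoporins went both ways: Nup205 of the inner ring was higher (1.67 ± 0.20, adjusted p = 3.4e-07), and Nup54 of the central channel was lower (-1.45 ± 0.21, adjusted p = 5.7e-06). Nup214 was lower here (-2.08 ± 0.19, adjusted p = 6.7e-09) and higher on another of its probe sets.

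Genes of pluripotency and the inner cell mass rose in 13 of 21 measured cases and fell in 2, with a median of 0.99. Zfp217, a zinc finger protein of pluripotent cells, averaged 1701 ± 269 at the 8-cell stage and 46.7 ± 51.6 in oocytes (4.95 ± 0.32, adjusted p = 1.8e-11). L1td1, an RNA-binding protein of embryonic stem cells, read 233, 291, 502 and 613 on the 8-cell arrays and 17.4, 11.8, 13.3 and 33.6 on the oocyte arrays (3.40 ± 0.35, adjusted p = 4e-08). Sall1, Tbx3 and Prdm14, transcription factors of the embryonic stem cell network, were higher (2.60 ± 0.28, adjusted p = 9.2e-08; 2.44 ± 0.36, adjusted p = 9.6e-06; and 2.17 ± 0.36, adjusted p = 4.3e-05), and so was Esrrb (1.08 ± 0.17, adjusted p = 2.9e-05). Il6st, the gp130 receptor through which LIF signals, fell to 64.2 ± 47.3 at the 8-cell stage, against 762 ± 306 in oocytes (-3.33 ± 0.37, adjusted p = 1.2e-07); the other fall was Klf17. Pou5f1, Nanog, Cdx2 and Cdh1 are not among the probe sets with 1 gene name here.

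Of 20 trophectoderm and Hippo genes 8 rose and 12 were not called, with a median of 0.64, and of 14 primitive endoderm genes 5 rose and 1 fell, with a median of 0.76. Tead1, the DNA-binding partner of YAP, averaged 1156 ± 282 at the 8-cell stage and 344 ± 57 in oocytes (1.67 ± 0.24, adjusted p = 5.5e-06), and the Hippo kinase Lats1 averaged 480.1 ± 56.8 and 253 ± 34 in the same order (0.87 ± 0.15, adjusted p = 0.0001). Gata6, the transcription factor of primitive endoderm, read 647, 649, 485 and 491 on the 8-cell arrays and 108, 66, 122 and 17.6 on the oocyte arrays (2.73 ± 0.44, adjusted p = 3e-05). Lrp2, or megalin, is in both lists and rose (1.41 ± 0.18, adjusted p = 1.1e-06). Sparc and Dab2 were called higher (0.66 ± 0.20, adjusted p = 0.013, and 1.36 ± 0.43, adjusted p = 0.018), but both calls were lost without oocyte array 4, and that of Sparc also without 8-cell array 1; without oocyte array 4, 3 primitive endoderm genes were higher. Centring on the array medians left 5 rises among the trophectoderm genes and 2 among the primitive endoderm genes. Of the primitive endoderm list, Ctsh, a lysosomal protease, fell (-2.45 ± 0.19, adjusted p = 6e-10).

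The junction, adhesion and polarity genes had 8 rises and 9 falls among 40 measured, near the 18.1% and 17.5% over all named genes, and a median of 0.01 whose sign turned after either other scaling. Ocln, the tight junction protein occludin, was switched on, with 406, 512, 371 and 466 on the 8-cell arrays and 45.2, 29.9, 71.5 and 50.9 on the oocyte arrays (2.75 ± 0.25, adjusted p = 7.1e-09). Ctnna1, alpha-catenin of the cadherin complex, and Epcam, an epithelial adhesion molecule, were higher (2.05 ± 0.37, adjusted p = 0.00012, and 1.57 ± 0.26, adjusted p = 5.2e-05). Myh10, a non-muscle myosin heavy chain, averaged 1992 ± 268 at the 8-cell stage and 719 ± 236 in oocytes (adjusted p = 4.2e-06). Cdc42bpa, a kinase downstream of CDC42, was switched off (-3.67 ± 0.35, adjusted p = 1.3e-08), and so was the claudin gene Cldn34b2 (-3.62 ± 0.36, adjusted p = 2.3e-08). Fat1, an atypical cadherin, fell but stayed bright, at 1207 ± 213 in 8-cell embryos and 4127 ± 740.4 in oocytes (-1.76 ± 0.26, adjusted p = 8.1e-06). Afdn and Dlg1, scaffolds of cell contacts, were slightly lower (-0.75 ± 0.17, adjusted p = 0.0014, and -0.78 ± 0.19, adjusted p = 0.0024).

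Chromatin genes moved in both directions: of 86 measured, 26 rose and 20 fell, with a median of 0.17 that became negative after median centring. Dnmt1, the maintenance DNA methyltransferase, read 73, 296, 243 and 101 on the 8-cell arrays and 7835, 8775, 10181 and 9244 on the oocyte arrays (-5.68 ± 0.37, adjusted p = 1.9e-11), on its only named probe set, of the x_at type. Tet2, which oxidises methylcytosine, read 581, 781, 1452 and 1200.0 on the 8-cell arrays and 24.1, 19.3, 16 and 18.5 on the oocyte arrays (4.61 ± 0.38, adjusted p = 1.4e-09). Tet1 rose as well, averaging 735 ± 207 at the 8-cell stage and 57.1 ± 33.8 in oocytes (3.35 ± 0.27, adjusted p = 9.4e-10). Tet3, the member that acts in the zygote, averaged 76.3 ± 21.5 and 190.3 ± 109 in the same order and was not called (-1.01 ± 0.45, adjusted p = 0.1; 95% interval -1.93 to -0.08), though it was called lower after quantile normalization, after median centring and without oocyte array 4. The histone demethylase Kdm1b, active in the growing oocyte, and the H3K9 methyltransferase Suv39h2 fell (-3.86 ± 0.21, adjusted p = 1e-12, and -4.03 ± 0.25, adjusted p = 9.1e-12). Among the CHD remodellers Chd1 and Chd2 rose (3.35 ± 0.37, adjusted p = 1.1e-07, and 2.38 ± 0.35, adjusted p = 1.1e-05) and Chd7 and Chd9 fell (-3.10 ± 0.22, adjusted p = 1.1e-10, and -3.42 ± 0.26, adjusted p = 3.9e-10). Pcgf5, of a Polycomb repressive complex, averaged 5031 ± 655 at the 8-cell stage and 541 ± 119 in oocytes (3.19 ± 0.23, adjusted p = 9.2e-11). Kdm5c and Kdm6b each had probe sets called in both directions.

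Of 31 genes of oxidative phosphorylation 4 rose, 7 fell and 20 were not called, as many calls in all as the 18.1% and 17.5% over all named genes would give, and the median of 0.13 turned negative under both other scalings. The rises were Cox11, Sco1, Ttc19 and Sdha, of which Cox11, a cytochrome oxidase assembly factor, averaged 999 ± 46 at the 8-cell stage and 243 ± 45.2 in oocytes (1.97 ± 0.20, adjusted p = 5.1e-08). Among the falls, Ndufc2 of complex I averaged 1586 ± 38.6 and 3492 ± 214 in the same order (-1.13 ± 0.19, adjusted p = 6.5e-05). Cox11, Ttc19, Sdha and Ndufc2 each had another probe set that was not called. Of 10 measured glycolysis and glucose transport genes 4 rose and 6 were not called, with a median of 0.49. Gpd2, of the glycerol phosphate shuttle, averaged 1247 ± 189 at the 8-cell stage and 176 ± 48.2 in oocytes (2.71 ± 0.29, adjusted p = 8.7e-08), and Tigar, a fructose bisphosphatase, averaged 2570.5 ± 248 and 378 ± 57.7 in the same order (2.71 ± 0.26, adjusted p = 1.1e-08). Of 8 cholesterol genes 3 rose and 2 fell, with a median of 0.27. Hsd17b7, an enzyme late in the pathway, and Insig1, which retains the sterol sensor, were lower (-2.35 ± 0.22, adjusted p = 1.2e-08, and -1.46 ± 0.17, adjusted p = 4.7e-07), and Hmgcs1 and Msmo1 were higher from dim oocyte values (1.33 ± 0.35, adjusted p = 0.0054, and 1.55 ± 0.40, adjusted p = 0.0045).

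Solute carriers, taken by name, had 31 rises and 24 falls among 167 measured, near or under the 18.1% and 17.5% over all named genes, with a median of 0.19 that turned negative after median centring; 1 of the falls, Slc7a6os, is not a carrier. Slc39a2, a zinc importer, was switched on, with 488, 784, 648 and 1125 on the 8-cell arrays and 22.9, 13.1, 9 and 10.2 on the oocyte arrays (4.48 ± 0.29, adjusted p = 1.5e-11). Slc39a10, another zinc importer, fell to 1032 ± 123 at the 8-cell stage, against 5925 ± 972 in oocytes (-2.49 ± 0.18, adjusted p = 1.8e-10). The thiamine transporter Slc19a3 averaged 833 ± 72.3 at the 8-cell stage and 109 ± 32.1 in oocytes (2.76 ± 0.17, adjusted p = 1.1e-11), and Slc19a2, which carries the same vitamin, rose too (2.39 ± 0.35, adjusted p = 8.4e-06). Slc25a31, a germ cell ADP/ATP carrier of mitochondria, fell (-3.95 ± 0.22, adjusted p = 1e-12), and Slc25a12, the aspartate/glutamate carrier, rose (2.59 ± 0.16, adjusted p = 1.2e-11). Slc38a9, a lysosomal arginine sensor upstream of the Rag GTPases, fell (-4.04 ± 0.24, adjusted p = 4.9e-12).

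DNA replication and repair genes were called in 14 of 38 cases, 8 higher and 6 lower, near the 18.1% and 17.5% over all named genes, and their median of 0.14 turned negative after median centring. Atm, the kinase of double-strand breaks, was switched on, with 734, 565, 830.0 and 793 on the 8-cell arrays and 16.7, 16.5, 14.2 and 51.7 on the oocyte arrays (4.13 ± 0.27, adjusted p = 2.1e-11). Subunits of one helicase moved apart: Gins2 was switched off, at 67.2 ± 17.2 in 8-cell embryos and 2347 ± 221 in oocytes (-4.78 ± 0.38, adjusted p = 5.8e-10), while Gins1, Gins3 and Cdc45 were higher (1.34 ± 0.29, adjusted p = 0.0009; 0.97 ± 0.18, adjusted p = 0.00015; and 2.70 ± 0.44, adjusted p = 3.3e-05). Mcm5 was kept, at 2807 ± 338 and 3289 ± 493 in the same order (-0.22 ± 0.17, adjusted p = 0.37; 95% interval -0.57 to 0.13).

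The kept transcripts were high on all arrays of both stages. The rule of kept allows a call within its limits, so Rps19bp1, Lsm6 and Sf3b5, counted above as called, were in this class too. Kdm2b, a histone demethylase that recruits Polycomb to CpG islands, averaged 9381 ± 845 at the 8-cell stage and 8993 ± 2215 in oocytes, a difference of 0.09 ± 0.21 (95% interval -0.35 to 0.53). Fnta, the shared subunit of protein prenyltransferases, averaged 8110.0 ± 359 at the 8-cell stage and 8640.1 ± 1216 in oocytes (-0.08 ± 0.21; 95% interval -0.51 to 0.35). Golga7, which partners a palmitoyltransferase, and the Hsp70 co-chaperone Dnaja2 were also within the limits (-0.39 ± 0.18 and 0.47 ± 0.17), Dnaja2 with a call (adjusted p = 0.039) that was lost without any of 7 of the 8 arrays. The brightest probe set of Cdca8, or borealin, a subunit of the chromosomal passenger complex, gave 0.03 ± 0.22, but its other probe sets were both called lower, at -0.50 ± 0.18 (adjusted p = 0.039) and -0.86 ± 0.19 (adjusted p = 0.0013), so the gene cannot be counted as kept on all of them. At the 2-cell stage, which the rule did not use, 1058 of 1211 kept probe sets were at or above 188.3 on all 4 arrays. Kdm2b, Fnta and Golga7 nonetheless had 2-cell means of 4526, 4046 and 2291, lower than at either end stage. Dnaja2 and the brightest Cdca8 probe set, at 10709 and 17703, did not. Kept therefore describes the level at the 2 end stages. Whether the RNA at the 8-cell stage was stored or newly made was not tested.

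**Figure D5:**
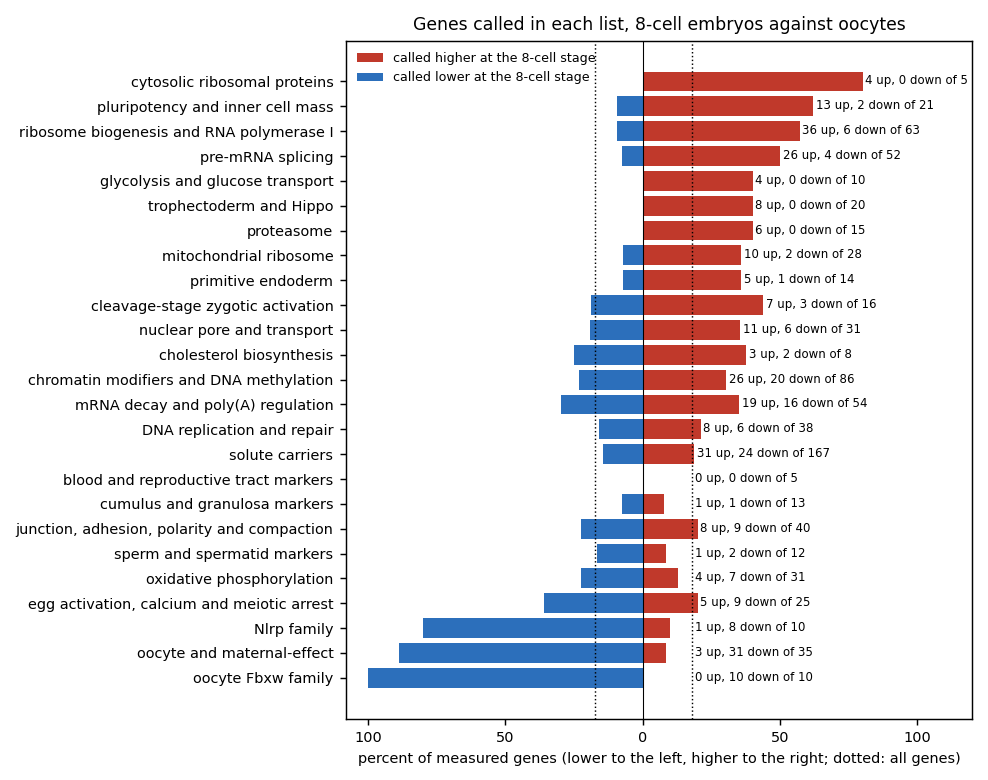
Percent of the measured genes of each list called higher (red, to the right) and lower (blue, to the left) at the 8-cell stage, with the counts; dotted lines mark 18.1% higher and 17.5% lower among all 9607 named genes. The 3 oocyte lists lie at the foot with mostly falls, and ribosome biogenesis, splicing and pluripotency lie near the top with mostly rises.

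Markers of other cells that could be carried along were looked at in the same way. Of 13 measured cumulus and granulosa genes 1 rose, Amhr2, and 1 fell, Bmpr1b, a receptor of the oocyte itself as well (1.86 ± 0.17, adjusted p = 4.5e-09, and -3.80 ± 0.29, adjusted p = 2.6e-10). Their summed intensity ran from 2633 to 2941 on 8-cell arrays and from 3090.1 to 4214 on oocyte arrays. Bmpr1b made up a large part of the oocyte sums, reading 1150.6 to 2082 on oocyte arrays and 64.2 to 151.4 on 8-cell arrays. Amhr2 went the other way, averaging 768 on 8-cell arrays and 196 on oocyte arrays. The order of the sums is therefore no measure of cumulus cells. Sperm and spermatid genes summed to between 1430.2 and 2028 on 8-cell arrays and between 834 and 1603 on oocyte arrays, with 1 of 12 higher and 2 lower. The 5 blood and reproductive tract genes summed to between 139.9 and 241 on 8-cell arrays and between 225 and 276 on oocyte arrays, and their adjusted p from limma was 0.24 or more. The part of such cells in the results was not tested.

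Control probe sets also differed between the stages. Each of the 8 measures below was compared by an exact 2-sided permutation test, whose smallest p for 4 against 4 arrays is 0.0286, and p was adjusted over the 8. The 45 bacterial controls averaged 0.78 log2 units higher on 8-cell arrays (adjusted p = 0.0327, exact permutation). The controls were then split in 2 ways chosen with values already seen. By name, the 18 bio and cre controls were 1.65 higher (adjusted p = 0.0327), and the 27 dap, lys, phe, thr and trp controls 0.19 higher (adjusted p = 0.229). By probe set type, the 21 of the r2 type were 0.72 higher and the 24 older ones 0.83 higher (adjusted p = 0.0327 each). The probe set for the middle of 18S ribosomal RNA was 2.31 higher (adjusted p = 0.0327). The log2 ratio of 3 prime to 5 prime signal was 1.92 on 8-cell arrays and 2.36 on oocyte arrays for beta-actin, and 0.98 and 1.99 in the same order for Gapdh, with adjusted p = 0.0327 for each. All of these measures but the dap, lys, phe, thr and trp controls differed between the stages, and their part in the gene results was not tested.

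Different probe sets of one gene did not always give 1 answer. Of 771 genes with at least 2 called probe sets, 135 (17.5%) had calls in both directions, Spty2d1 and Kdm5c among them. Of 164 named probe sets called, 70 had another probe set of the gene. The other calls, those of Psma3 and Atm among them, rest on 1 probe set, and a low reading there does not show that the transcript was absent. In 42 of these 70 at least 1 other was called the same way, and in 2 at least 1 was called the opposite way. Rps3, Rragd, Tent4a and Mrps10 were among those with no other probe set called. Of the 171 named probe sets, 157 kept call and direction under every alternative in which they were tested, which compares each probe set only with itself.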

How the data were processed

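Per the labels, total RNA of mouse oocytes and embryos went through 2 rounds of in vitro transcription before hybridisation to MOE430B arrays, 4 arrays for each of 5 stages. The deposited values are linear intensities, 1 for each of 22575 probe sets, 64 of them controls. The sources used here do not name the software that summarised and scaled them. The values show that the authors had brought each array to a common trimmed mean. No 2 arrays held the same values.

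Probe sets were named through the platform annotation with symbols updated by Entrez identifier (GRCm38.p6): 14661 carry 1 symbol, 245 several and 7605 none. Intensities were transformed to log2(intensity + 20) and 5 stage means fitted over 20 arrays in limma 3.58.1 (R 4.3.3; 15 residual degrees of freedom; eBayes with an intensity trend). The fit was tested on simulated data with known changes. In gene lists a gene was read from its brightest probe set on average. Promoter windows were read from RefSeq.

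The comparison, the thresholds, the lists and the tests were chosen with earlier results of these data known. Genes were named by a rule: the 14 largest called rises and falls with 1 symbol that is no clone name, not of the x_at type, whose groups did not overlap; up to 4 called members a list and direction by smallest p, or the 2 brightest where none was called; the 6 brightest kept; the 8 brightest falls not switched off; and a few set genes. Other list members that are named were chosen after their values were seen. Alternatives were other pseudocounts, filters, scalings, samples, variance models and probe set types, the replicate block and leaving out each of the 8 arrays. No label says that replicate numbers pair the samples, and the main fit used no pairing. Deviations of same-numbered 8-cell and oocyte arrays correlated between -0.043 and -0.0074, which does not tell how the samples were collected.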

Additional observations from a re-analysis of the deposited data

Results flagged for a closer look

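Among 171 named probe sets, each with 1 group of 4 8-cell arrays and 1 of 4 oocyte arrays, 32 of 342 groups held 1 array far from the other 3 by Dixon's ratio at its 95% critical value. Chance flags about 1 group in 20. Oocyte replicate 4 was the distant array 7 times, more often than any other array, and the 8-cell arrays 4 or 5 times each. Intensities are given as the distant array against the range of the other 3.

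On the 8-cell arrays, replicate 1 stood apart for Obox6 (21768 against 15915 to 16534), Nlrp12 (120.4 against 231 to 248), Riok1 (156 against 280.1 to 287), Ddx46 (77.1 against 69.2 to 70.3) and Lrp2 (592 against 514 to 518). Replicate 2 stood apart for Wee2 (168 against 82.9 to 90.7), Btg1 (328 against 197 to 202), Ipo9 (742 against 586 to 608) and Catsper2 (536 against 279.8 to 307). For replicate 3 the genes were Nlrp4f (92.4 against 153 to 154), Klf17 (1977 against 2234 to 2281), Cox11 (1068 against 967 to 981), Lsm6 (1224 against 1045 to 1052) and Amhr2 (624 against 799 to 834). For replicate 4 they were Gigyf2 (2249 against 2086 to 2109.5), Ago2 (2779 against 2212 to 2273), Cdc45 (409.7 against 188 to 213), Cdca8 (4192 against 2865 to 2957) and Bmp15 (125 against 11.8 to 29.3).

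On the oocyte arrays, replicate 4 stood apart for Tmem64 (3.2 against 49.6 to 58.5), Mrpl52 (267 against 108 to 135), Sdha (90.7 against 23.5 to 25), Nup54 (4437 against 6269 to 6478), Atm (51.7 against 14.2 to 16.7), Catsper2 (181 against 107 to 115) and Fbxw24 (26341 against 19459.7 to 20280.3). Replicate 1 was low for Slc38a9 (2159 against 2859.7 to 2955) and Insig1 (913 against 1187 to 1203). Replicate 2 differed for Btg1 (25.1 against 8.6 to 11.1) and Rad18 (689.5 against 852 to 884), and replicate 3 for Vnn1 (52.3 against 6.4 to 13.9) and Cdc42bpa (766 against 350.4 to 381).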

How the results depend on the processing

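With 1 array left out at a time, 3373 to 3718 probe sets were called higher and 2335 to 2461 lower, 2735 to 2948 and 1972 to 2053 of them by at least 2-fold, and 194 to 236 were switched off, 251 to 277 switched on and 1188 to 1240 kept. A pseudocount of 80 left 1566 rises of at least 2-fold, in place of 2954. A filter at the 75th percentile on at least 4 arrays left 2509 rises and 1701 of at least 2-fold, since fewer probe sets were tested. Centring each array on its median left 2605 rises. The replicate block gave 3869 rises and 2530 falls, though no label says that samples sharing a number belong together. Of the named genes, Sf3b5 and Dnaja2 lost their calls under it (adjusted p from limma = 0.054 and 0.051). Quantile normalization turned the sign of Sf3b5 (0.075) and of the dimmer Cdca8 probe set (0.19), the cause of which was not tested. Of 3196 values of named probe sets under alternatives, 3124 kept direction and side of the threshold, 66 in 12 probe sets lost the call and 4 in 2 gained it. Of 948 list counts 57 moved by over 1.5 times. Dim probe sets are limited by background, and no detection calls were used to set them aside.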
